A study of Mus musculus with 8 samples.

Results

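Mir143, Mir145a, Mir199a-1, Mir199a-2, Mir199b, Mir214, Mir21a and Mir22 are miRNA genes grouped here as fibroblast and mesenchymal miRNAs, though not all are confined to such cells. They were followed through 3 groups of small RNA libraries. The 8 genes were chosen by name, and all 8 names were found once in both count tables, as 8 of 5518 rows of annotated small RNAs and 8 of 2161 miRNA rows that overlap no small nucleolar RNA (snoRNA) or ribosomal RNA row. Of those miRNA rows, 406 were counted at least once over the 8 libraries. The first group, MEF TEsR, held 4 libraries of mouse embryonic fibroblasts (MEFs) prepared by TEsR, a target-enrichment method for small RNA: linkers are ligated, the RNA is amplified and captured with hybridising probes, and the product is read on a MiSeq. These fibroblasts carried a conditional knockout allele of TRF2, a protein that protects telomeres, and Rosa26-CreERT2, a recombinase driven from the Rosa26 locus and switched on by 4-hydroxytamoxifen. By the sample titles 2 of the 4 were induced, for which the treatment protocol gives 0.6 µM for 48 hours, and 2 were uninduced. The second group, MES TEsR, held 2 libraries of B6G-2 mouse embryonic stem (MES) cells, grown without feeders and with leukemia inhibitory factor. The last group, MEF TruSeq, held 2 libraries of induced MEFs with the same alleles, prepared with the standard TruSeq small RNA method and read on a HiSeq.

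Several labels limit how the libraries can be read. The 4 MEF TEsR columns are named mmS1, mmS2, pmS1 and pmS2, codes left unexplained by the labels, so it is not known which are the induced ones, and the 4 were used as 1 group. The TruSeq columns are named by their indexes, ATCACG and CGATGT, and the name of their table calls them a control although their titles say induced. No TRF2 row is among the small RNAs, so the deletion could not be checked. Since nothing in the labels ties the libraries to separate cultures, a p-value here reflects the spread among the libraries alone, and that spread may be technical. Total counts were 3221641 to 3768668 in MEF TEsR, 2676776 to 2785150 in MES TEsR and 8442960 to 8961221 in MEF TruSeq. The miRNA rows took 1.52% to 7.39% of a MEF TEsR library, with mmS2 at 1.52% standing below the other 3 at 4.76% to 7.39%. They took 0.242% of either MES TEsR library and 0.0399% to 0.0603% of a MEF TruSeq library. A share below is a percentage of a library's miRNA counts unless another scale is named.

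A miRNA gene is transcribed as a long primary transcript, from which Drosha cuts a hairpin and Dicer then cuts a duplex, and 1 strand guides Argonaute to messenger RNAs that pair with its seed, bases 2 to 8. Mir143 and Mir145a come from a common transcript that is abundant in smooth muscle and fibroblasts, and Mir199a-2 and Mir214 come from Dnm3os, an antisense transcript of Dnm3 that is needed for skeletal growth in the mouse. miR-21 is abundant in cultured fibroblasts, where TGF-beta raises it, and represses Pdcd4, while miR-22 is found in many tissues and is linked to growth of heart muscle.

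The mature sequences of the miRNAs on which the results turn are shown with their seeds in capitals, 5′ to 3′, as RefSeq gives them for GRCm38.p6. The RefSeq tables matched 6 of the 8 genes, all but Mir143 and Mir145a. miR-199a-3p and miR-199b-3p have identical sequences and stand on 1 line.
miR-21a-5p: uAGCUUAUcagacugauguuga
miR-22-3p: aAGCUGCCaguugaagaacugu
miR-214-3p: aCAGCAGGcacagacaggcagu
miR-199a-5p: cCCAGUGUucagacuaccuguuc
miR-199a-3p and miR-199b-3p: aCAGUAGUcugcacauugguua
No pair of these 5 sequences shares a seed. Outside the 8 genes, miR-21c shares the seed of miR-21a-5p and miR-761 that of miR-214-3p. The sequences of miR-21a-5p, miR-22-3p and miR-214-3p each occurred in 1 hairpin of the RefSeq table. That of miR-199a-5p occurred in 2 hairpins, Mir199a-1 and Mir199a-2, and the common 3p sequence occurred in 3, Mir199a-1, Mir199a-2 and Mir199b.

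The 3 hairpins of the miR-199 family are shown because they hold mature sequences in common and were nearly uncounted by TEsR, with the annotated mature arms in capitals.
Mir199a-1: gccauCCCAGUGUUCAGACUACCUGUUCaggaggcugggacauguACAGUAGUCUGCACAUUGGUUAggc
Mir199a-2: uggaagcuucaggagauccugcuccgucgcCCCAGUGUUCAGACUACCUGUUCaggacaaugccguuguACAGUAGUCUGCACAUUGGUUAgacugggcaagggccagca
Mir199b: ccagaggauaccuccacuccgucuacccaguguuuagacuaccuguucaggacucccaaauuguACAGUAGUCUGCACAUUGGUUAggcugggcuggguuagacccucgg
Over the whole hairpins, arms included, Mir199a-2 and Mir199b were identical at 72.3% of aligned columns, and Mir199a-1 and Mir199a-2 at 56.2%. The Mir199b hairpin holds the miR-199a-5p sequence with 1 difference over 23 bases, C10U, counted from the 5′ end of miR-199a-5p. The deposited counts are per hairpin row, so the arms of a hairpin cannot be told apart, and how reads that match several hairpins were counted is not given in the sources used here.

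Positions are on mm10, as the count tables give them. Mir199a-2 (chr1:162217814-162217923) and Mir214 (chr1:162223368-162223477) lie on the plus strand with 5444 bases between them, each within an exon of 2 of the 6 annotated Dnm3os transcripts and opposite introns of Dnm3. Mir199a-1 (chr9:21496495-21496564, minus strand) lies opposite introns of Dnm2, and Mir199b (chr2:32318460-32318569, plus strand) opposite introns of Dnm1. Mir21a (chr11:86584067-86584158, minus strand) lies within an exon of 1 of 8 transcripts of Vmp1, and Mir22 (chr11:75463716-75463810, plus strand) within an exon of both transcripts of its noncoding host Mir22hg and of 1 of 4 transcripts of Tlcd2. Mir145a (chr18:61647825-61647894) and Mir143 (chr18:61649196-61649258) lie on the minus strand with 1301 bases between them, in no annotated host transcript.

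The 8 miRNAs together made up 30.5%, 30.7%, 28.2% and 25.5% of miRNA counts in the MEF TEsR libraries mmS1, mmS2, pmS1 and pmS2. They made up 5.48% and 5.88% in MES TEsR, and 14.8% and 12.9% in the MEF TruSeq libraries ATCACG and CGATGT. The MEF TEsR libraries lay above both other groups without overlap. Mean shares were 28.7% ± 2.41 (SD, n = 4) in MEF TEsR and 5.68% ± 0.281 (SD, n = 2) in MES TEsR, a difference of 23.1 percentage points with an exact two-sided permutation p of 0.133, the smallest that 4 against 2 libraries can give. The difference from MEF TruSeq, at 13.8% ± 1.31 (SD, n = 2), was 14.9 points with the same exact permutation p of 0.133.

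Most of the MEF TEsR sum was a single gene, Mir21a, and without it the order of the 2 methods in these shares turned round. The other 7 miRNAs averaged 1.29% ± 0.276 (SD, n = 4) in MEF TEsR, against 0.226% ± 0.0796 (SD, n = 2) in MES TEsR. In MEF TruSeq they averaged 12.2% ± 2.17 (SD, n = 2), which put MEF TEsR 10.9 points below it, again at the smallest exact permutation p of 0.133. This order holds for the miRNA total used here, which in MEF TruSeq left out most counts of rows typed as miRNA. ATCACG and CGATGT had 1926196 and 2056210 counts in all such rows, and 5403 and 3366 in the rows used. On counts scaled to a common total over all rows of a library (CPM), the 7 averaged 658 in MEF TEsR and 62.7 in MEF TruSeq. The 3 leading rows, Mir106b, Mir21a and Mir29b-1, held 80.6% to 84.8% of miRNA counts in MEF TEsR, 35.3% to 35.7% in MES TEsR and 1.87% to 3.77% in MEF TruSeq. Over miRNA counts without these 3 rows, the 7 miRNAs averaged 7.66% in MEF TEsR, 0.351% in MES TEsR and 12.5% in MEF TruSeq, so the order of the groups stayed the same.

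**Figure D1:**
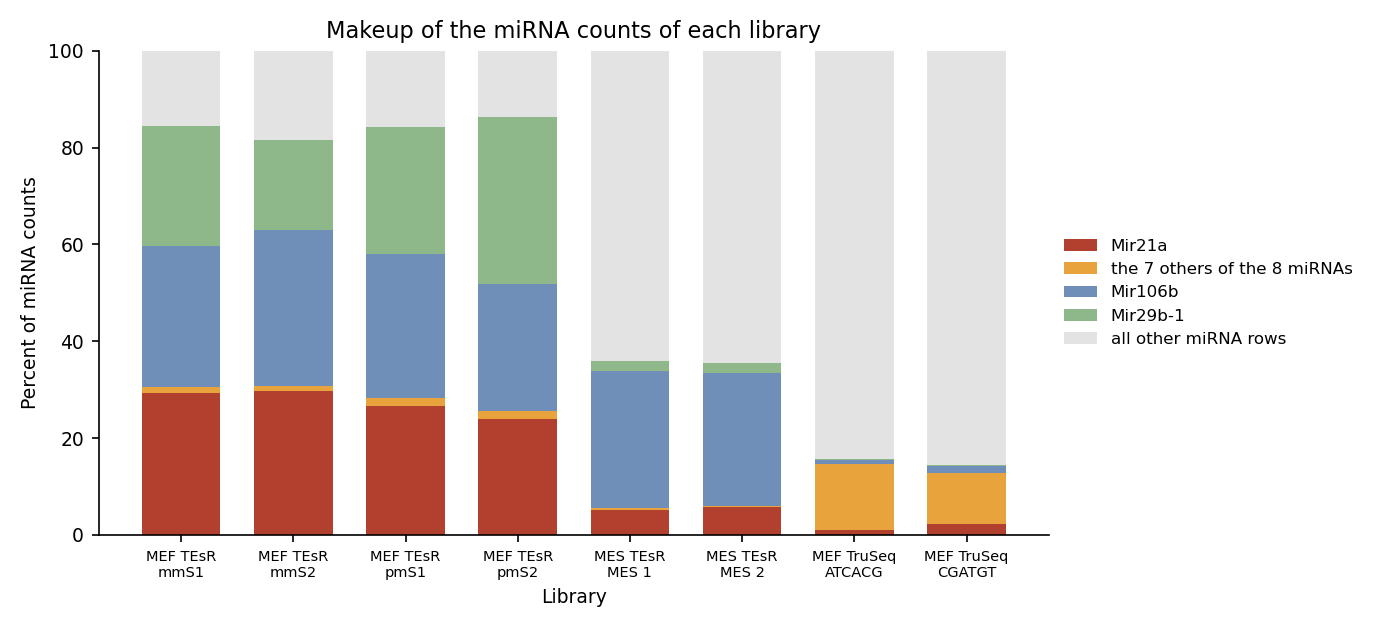
Stacked bars give the percentage of miRNA counts (vertical axis) held by Mir21a, the other 7 miRNAs, Mir106b, Mir29b-1 and all other miRNA rows in each of the 8 libraries (horizontal axis). Mir21a, Mir106b and Mir29b-1 filled 80.6% to 84.8% of each MEF TEsR bar, while the other 7 miRNAs reached 10.7% to 13.7% only in the MEF TruSeq bars.

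Mir21a was the most abundant of the 8 in both TEsR groups. It had 61052, 17008, 69764 and 36842 counts in mmS1, mmS2, pmS1 and pmS2, against 350 and 370 in MES TEsR, and 55 and 75 in MEF TruSeq. As shares these were 29.3%, 29.7%, 26.7% and 24.0% in MEF TEsR, 5.20% and 5.71% in MES TEsR, and 1.02% and 2.23% in MEF TruSeq, with no overlap between any of the groups. Mir21a held ranks 1 to 3 among the miRNA rows of the MEF TEsR libraries, rank 4 in both MES TEsR libraries, and ranks 12 and 11 in ATCACG and CGATGT. Its coefficient of variation over the 4 MEF TEsR shares was 9.67%.

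Mir22, which lies in its own noncoding host transcript, was far less abundant. It had 406, 150, 423 and 329 counts in mmS1, mmS2, pmS1 and pmS2, against 3 and 0 in MES TEsR and 9 and 5 in MEF TruSeq. Its shares were 0.162% to 0.262% in MEF TEsR, 0% to 0.0446% in MES TEsR, and 0.149% to 0.167% in MEF TruSeq, so that the 2 methods overlapped in MEFs. A count of 0 in the second MES TEsR library allows a share of up to 0.0463% (3 counts of its miRNA total). Such limits, and the Clopper-Pearson intervals used here, cover counting error only, since reads without molecular identifiers are not independent molecules.

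Of the Mir143/Mir145a pair, Mir143 was the higher in each library. Mir143 had 368, 116, 594 and 389 counts in mmS1, mmS2, pmS1 and pmS2, against 9 and 1 in MES TEsR, and 176 and 97 in MEF TruSeq. Its share was 0.177% to 0.254% in MEF TEsR, 0.134% and 0.0154% in MES TEsR, and 3.26% and 2.88% in MEF TruSeq. The first MES TEsR library lay close under the MEF TEsR range, with a 95% interval of 0.0612% to 0.254% around its 9 counts that spans that range. Mir145a had 55, 30, 130 and 63 counts in MEF TEsR, no count in either MES TEsR library, and 16 and 2 counts in MEF TruSeq. Its MEF TEsR share of 0.0264% to 0.0524% is about the share of up to 0.0446% and 0.0463% that a count of 0 allows in the MES TEsR libraries, so a difference in plain share was not detectable at their depth.

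The members of the Mir199a-2/Mir214 pair differed in count by far more in MEF TEsR than in MEF TruSeq. Mir214 had 1542, 260, 2810 and 1549 counts in mmS1, mmS2, pmS1 and pmS2, against 7 and 10 in MES TEsR, and 376 and 165 in MEF TruSeq. Its shares were 0.741%, 0.454%, 1.08% and 1.01% in MEF TEsR, 0.104% and 0.154% in MES TEsR, and 6.96% and 4.90% in MEF TruSeq. Mir214 varied most among the 5 better-counted members within MEF TEsR, with a coefficient of variation of 34.6%, and mmS2 was its lowest library. Its neighbour Mir199a-2 had 1, 1, 0 and 2 counts in MEF TEsR and none in MES TEsR, against 228 counts over both MEF TruSeq libraries, where it held 2.65% and 2.53% of miRNA counts in ATCACG and CGATGT.

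The other miR-199 hairpins were near 0 in TEsR as well. Mir199b had 4, 0, 8 and 5 counts in mmS1, mmS2, pmS1 and pmS2, none in MES TEsR, and 22 and 3 in MEF TruSeq. Mir199a-1 had 0, 0, 2 and 0 counts in MEF TEsR, none in MES TEsR, and 0 and 2 in MEF TruSeq, so it was at or under the limit of 3 counts throughout. Summed over the family, the 3 hairpins held 0.00314% ± 0.00129 (SD, n = 4) of miRNA counts in MEF TEsR and 2.86% ± 0.269 (SD, n = 2) in MEF TruSeq. In MES TEsR the family had no count, which allows up to 0.0446% and 0.0463% in the 2 libraries.

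**Figure D2:**
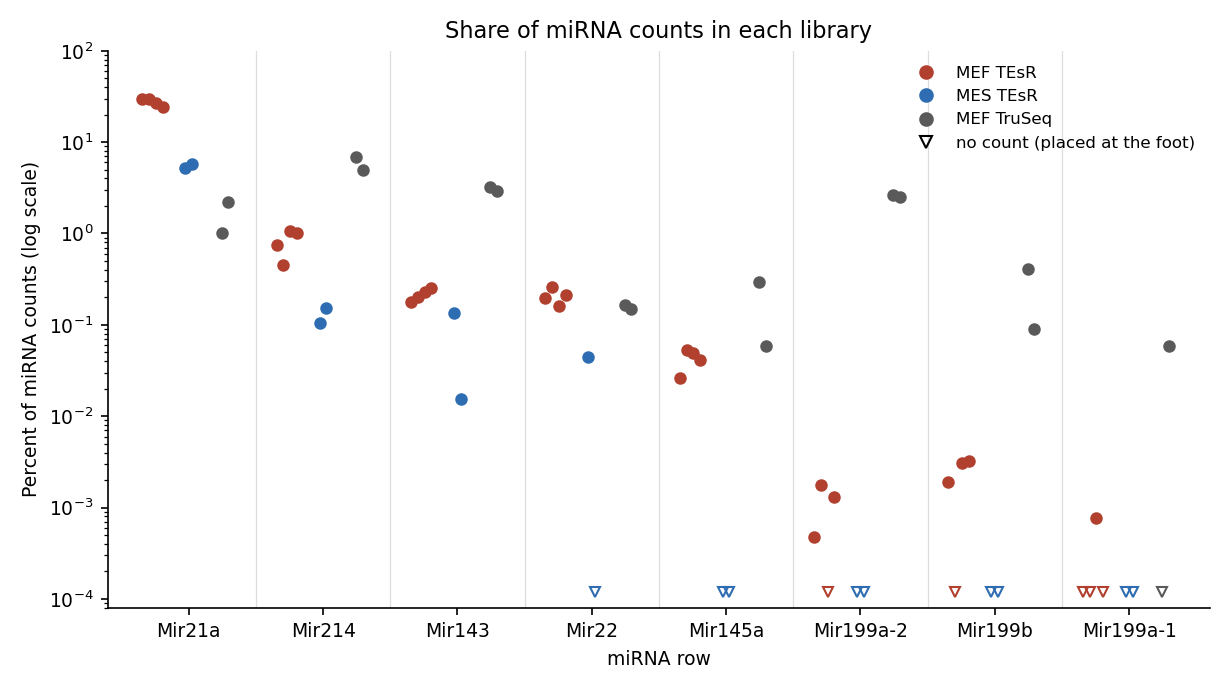
Each point is 1 library's percentage of miRNA counts (vertical axis, log scale) for the 8 miRNAs (horizontal axis), coloured by group, and open triangles at the foot mark libraries with no count. Mir21a lies at 24.0% to 29.7% in MEF TEsR, above both other groups, whereas Mir214, Mir143 and Mir199a-2 lie highest in MEF TruSeq.

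Levels were ordered within a group per 100 bases of hairpin, since the hairpins are 63 to 110 bases long. Reads of a mature arm need not rise in number with the length of the hairpin, so plain shares are set beside this order. In MEF TEsR the order was Mir21a at 29.8% per 100 bases, Mir214 at 0.746%, Mir143 at 0.341%, Mir22 at 0.219% and Mir145a at 0.0606%, and none of these neighbours overlapped between libraries. Mir199b, Mir199a-2 and Mir199a-1 followed at 0.00187% or less and overlapped each other. On plain shares the order was the same, but Mir143 at 0.177% to 0.254% and Mir22 at 0.162% to 0.262% overlapped. In MES TEsR Mir21a led at 5.93% per 100 bases, Mir143 and Mir214 followed at 0.118% and 0.117% and overlapped, and Mir22 came next at 0.0235%. Mir22, with 3 and 0 counts in MES TEsR, overlapped Mir143 but not Mir214. On plain shares Mir214 stood above Mir143 there, at means of 0.129% and 0.0746%, again with overlap. In MEF TruSeq Mir214 and Mir143 led at 5.39% and 4.87% per 100 bases and overlapped, followed by Mir199a-2 at 2.35% and Mir21a at 1.76%, which also overlapped. On plain shares neither overlap was seen in MEF TruSeq. Mir214 at 4.90% to 6.96% lay above Mir143 at 2.88% to 3.26%, and Mir199a-2 at 2.53% to 2.65% above Mir21a at 1.02% to 2.23%.

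MEF TEsR against MES TEsR compares the cell types within a single method. The MEFs also carried the TRF2 and Rosa26-CreERT2 alleles and were in part induced, which the labels do not give for the MES cells. Cell type, alleles and induction therefore cannot be told apart. On CPM, counts scaled to a common total over all rows of a library, Mir21a averaged 13011 ± 6610 in MEF TEsR (SD, n = 4) and 132 ± 8.88 in MES TEsR (SD, n = 2), 98.6-fold higher in MEF TEsR. Mir214 averaged 439 ± 298 CPM in MEF TEsR and 3.12 ± 0.864 in MES TEsR. Mir143 averaged 105 ± 57.0 CPM in MEF TEsR and 1.80 ± 2.02 in MES TEsR, and Mir22 averaged 92.6 ± 35.9 CPM in MEF TEsR and 0.539 ± 0.762 in MES TEsR. Mir145a, at 19.8 ± 12.3 CPM in MEF TEsR and 0 in MES TEsR, was at least 18.0-fold higher on CPM, with 3 counts per library as the limit for MES TEsR. In bulk libraries, more cells that express a miRNA and more of it per cell cannot be told apart.

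In edgeR's quasi-likelihood test over all rows, 5 of the 8 miRNAs passed the filter on low counts, and these 5 were higher in MEF TEsR. Among all 273 rows tested, 31.5% were called higher and 43.6% lower at an adjusted p under 0.05, and among the 108 miRNA rows 56.5% were called higher and 17.6% lower. Only Mir21a met the filter in the MES TEsR libraries themselves. The other 4 passed through the MEF TEsR libraries, so the count of 5 is a description and does not stand for all 8. The log2 fold change was 5.76 ± 0.59 for Mir21a (SE; edgeR, Benjamini-Hochberg adjusted p = 1.11e-05), 6.24 ± 0.95 for Mir214 (adjusted p = 1.55e-04), 6.52 ± 0.87 for Mir22 (adjusted p = 6.64e-05) and 4.98 ± 0.86 for Mir143 (adjusted p = 3.72e-04). Mir145a was also called by edgeR (adjusted p = 2.82e-04), and its fitted value of 8.78 depends on the prior count because MES TEsR had none. The median log2 fold change was 6.24 over the 5 miRNAs, or 5.76 with Mir145a at its limit, −0.45 over all rows and 2.32 over miRNA rows. A single MES TEsR library moved 2 of the values by over 1.5 times without ending a call: Mir143 was at 7.26 and 4.18, and Mir22 at 11.16 and 5.60, without the first and the second MES TEsR library.

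Scaled on miRNA rows alone, the same 5 miRNAs were again called higher in MEF TEsR, with smaller values. Mir22 and Mir145a passed the filter here only through the MEF TEsR libraries, so the count of 5 is again a description. Of 126 miRNA rows tested this way, 25.4% were called higher and 29.4% lower. The log2 fold changes were 3.63 ± 0.26 for Mir21a, 4.07 ± 0.73 for Mir214, 4.50 ± 0.70 for Mir22 and 2.89 ± 0.69 for Mir143, with adjusted p-values from edgeR of 3.46e-05 to 0.00900. Mir145a was called at 8.62 (edgeR adjusted p = 0.00420), a fit against libraries with no count, although its plain shares could not show a difference. On plain shares the ratio of means was 5.03 for Mir21a, 6.35 for Mir214, 9.35 for Mir22 and 2.88 for Mir143. The last 2 rest on few counts in the MES TEsR libraries, 3 and 0 for Mir22 and 9 and 1 for Mir143.

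Markers of other cell types were read on the same libraries. The stem cell rows of the miR-290 and miR-302 groups held 0% to 0.00874% of miRNA counts in MEF TEsR, with 10 of their 12 rows at 0, against 19.7% to 21.3% in MES TEsR, and were all at 0 in MEF TruSeq. The let-7 family, which rises as stem cells differentiate, held 0.256% to 0.547% in MEF TEsR, 0.0463% to 0.119% in MES TEsR and 4.33% to 6.77% in MEF TruSeq. Epithelial rows held 0.00306% to 0.0122% in MEF TEsR, 3.75% to 4.01% in MES TEsR and 0% in MEF TruSeq. Mir126a, the endothelial row, held 0.0490% to 0.0769% in MEF TEsR, 0.802% to 1.05% in MES TEsR and 0.0594% to 0.0740% in MEF TruSeq. Striated muscle rows, of which 5 of 6 were at 0, reached at most 0.00817% in MEF TEsR, 0.0154% in MES TEsR and 0% in MEF TruSeq. The 5 blood rows had no count in MEF TEsR or MEF TruSeq and reached 0.104% in MES TEsR, and neural and liver rows had none in any library. The part of these other cell types in the differences of the 8 miRNAs was not tested.

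Of other mesenchymal or TGF-beta linked miRNAs, a list of 39 rows, 24 were tested. Over all rows edgeR called 19 of the 24 higher in MEF TEsR and the other 5 missed the threshold, where 31.5% of all rows and 56.5% of miRNA rows were called higher. Their median log2 fold change was 4.74, or 4.16 with rows at 0 in MES TEsR at their limit, against −0.45 over all rows and 2.32 over miRNA rows. With miRNA rows scaled alone, 14 of 24 were called higher and 1 lower, where 25.4% of miRNA rows were called higher and 29.4% lower. A row could pass the filter through MEF TEsR alone, as did Mir132 and Mir24-2, which had no count in MES TEsR, so these counts and medians are descriptions and do not stand for the 39 rows. Mir29b-1, of the miR-29 family that represses collagens, had 51547, 10611, 68568 and 52797 counts in MEF TEsR and 134 and 133 in MES TEsR, a log2 fold change of 7.22 ± 0.81 (edgeR adjusted p = 1.85e-05). Mir221, which represses the cell cycle inhibitor p27, had a log2 fold change of 6.63 ± 0.70 (edgeR adjusted p = 1.25e-05). Mir29a and Mir322 followed at 6.35 ± 0.76 and 6.23 ± 0.64, with 2 and 1 counts of Mir29a and 4 and 5 of Mir322 in MES TEsR. Those that missed the threshold were Mir24-1, Mir125b-1, Mir100, Mir99b and Mir335.

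**Figure D3:**
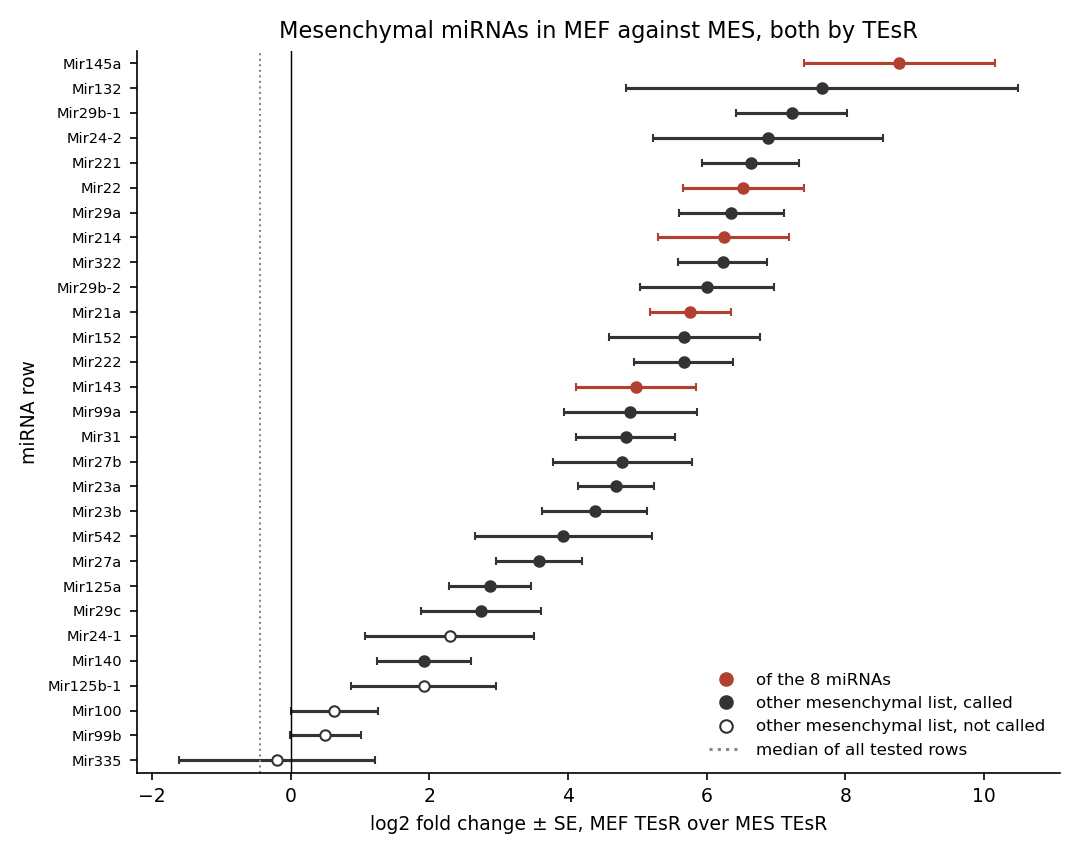
Points give log2 fold changes of MEF TEsR over MES TEsR with bars of 1 SE (horizontal axis) for the 5 tested of the 8 miRNAs and the 24 tested rows of the mesenchymal list (vertical axis), and open points missed an adjusted p of 0.05. The 5 miRNAs lie between 4.98 and 8.78, right of the dotted median of all rows at −0.45, and the values of Mir145a, Mir132 and Mir24-2 are fits against MES TEsR libraries without a count.

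MEF TEsR against MEF TruSeq compares the methods in 1 cell type, with the limit that the TruSeq libraries were all labelled induced and the TEsR libraries only in part. This comparison shares its MEF TEsR libraries with the previous comparison. Mir21a stood far higher by TEsR on every scale, and Mir199a-2 far lower. Mir21a averaged 13011 ± 6610 CPM in MEF TEsR (SD, n = 4) and 7.51 ± 1.94 in MEF TruSeq (SD, n = 2), and Mir199a-2 averaged 0.289 ± 0.255 CPM in MEF TEsR and 13.0 ± 4.16 in MEF TruSeq. Mir22 averaged 92.6 ± 35.9 CPM in MEF TEsR and 0.798 ± 0.291 in MEF TruSeq.

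In edgeR's test over all rows, 6 of the 8 miRNAs passed the filter, and 5 were higher and 1 was lower in MEF TEsR. Among the 352 rows tested, 32.4% were called higher and 55.7% lower, and among the 103 miRNA rows 81.6% were called higher and 7.77% lower. Mir22 and Mir145a passed only through the MEF TEsR libraries and Mir199a-2 only through the MEF TruSeq libraries. The log2 fold change was 11.30 ± 0.74 for Mir21a (SE; edgeR adjusted p = 2.93e-08), 7.35 ± 0.77 for Mir22 (adjusted p = 1.49e-06) and −4.83 ± 0.83 for Mir199a-2 (adjusted p = 1.14e-04). The median log2 fold change was 4.48 over the 6 miRNAs, −2.42 over all rows and 6.28 over miRNA rows. Relative to the miRNA rows as a whole, Mir21a and Mir22 therefore lay above the median and the other 4 below it. Without ATCACG the value was 8.14 for Mir22 and −3.97 for Mir199a-2, and without CGATGT it was 6.75 for Mir22, with no call lost.

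For Mir143, Mir145a and Mir214 the result depended on the scale. Over all rows Mir143 was at 3.24 ± 0.67, Mir145a at 4.68 ± 0.96 and Mir214 at 4.27 ± 0.84 (edgeR adjusted p of 4.06e-04 to 4.82e-04). With miRNA rows scaled alone, Mir143 was lower in MEF TEsR at −1.28 ± 0.45 (edgeR adjusted p = 0.0324), while Mir145a at 0.24 and Mir214 at −0.30 missed the threshold (adjusted p = 0.769 and 0.666). Also without the 3 leading rows, Mir143 was at −0.45 and its call ended (edgeR adjusted p = 0.483). On plain shares all 3 means were lower in MEF TEsR: 0.215% in MEF TEsR against 3.07% in MEF TruSeq for Mir143, 0.0424% in MEF TEsR against 0.178% in MEF TruSeq for Mir145a, and 0.820% in MEF TEsR against 5.93% in MEF TruSeq for Mir214. Over miRNA counts without the 3 leading rows, Mir145a averaged 0.247% in MEF TEsR against 0.182% in MEF TruSeq. Its libraries overlapped there, at 0.159% to 0.287% in MEF TEsR and 0.0617% to 0.302% in MEF TruSeq, so neither direction was shown. Mir214 averaged 4.91% in MEF TEsR against 6.09% in MEF TruSeq, also with overlap, at 2.35% to 6.63% and 5.09% to 7.09%. Mir143 averaged 1.27% in MEF TEsR against 3.16% in MEF TruSeq, without overlap. The TruSeq library CGATGT, with 2 counts of Mir145a, lay close to the MEF TEsR range for that gene. Over all rows, the values were 4.09, 7.05 and 5.35 for Mir143, Mir145a and Mir214 without ATCACG and 2.63, 3.65 and 3.57 without CGATGT.

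With miRNA rows scaled alone, 7 of the 8 miRNAs were tested, and 2 were called higher and 3 lower in MEF TEsR, where 35.3% of the 133 rows were called higher and 36.1% lower. Mir21a and Mir22 kept their direction at 6.78 ± 0.31 and 2.91 ± 0.49, and Mir199a-2 at −9.22 ± 0.72. On plain shares Mir22 averaged 0.208% in MEF TEsR and 0.158% in MEF TruSeq. The libraries overlapped there, with 9 and 5 counts of Mir22 in MEF TruSeq, so no difference in plain share was shown. Mir199b entered the test on this scale and was lower in MEF TEsR at −4.30 ± 0.99 (edgeR adjusted p = 0.00482). Mir199b and Mir199a-2 passed the filter here only through the MEF TruSeq libraries. The count of 3 lower is therefore a description, and nothing is read from the direction of these 2 rows. On CPM, however, Mir199b averaged 1.22 ± 0.950 in MEF TEsR and 1.41 ± 1.48 in MEF TruSeq, and the libraries overlapped.

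**Figure D4:**
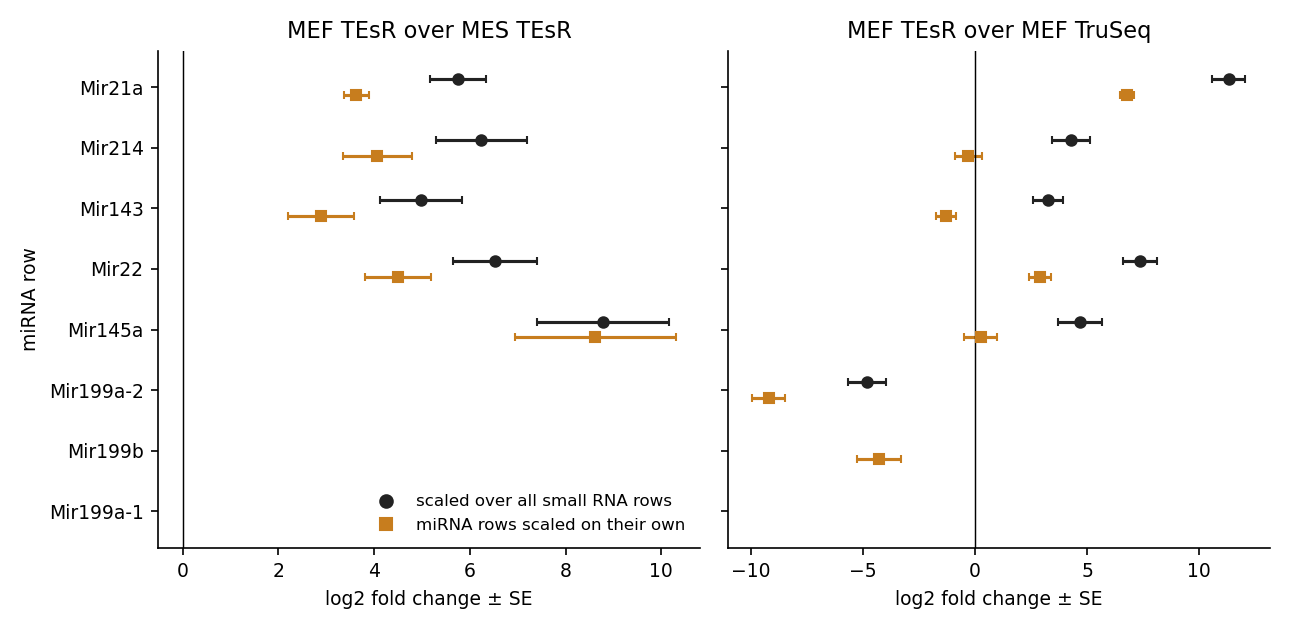
Points give log2 fold changes with bars of 1 SE (horizontal axes) for the 8 miRNAs (vertical axis) in MEF TEsR over MES TEsR (left) and over MEF TruSeq (right), scaled over all rows (black) or over miRNA rows alone (orange), and a missing point was not tested. The 5 tested miRNAs lie above 0 on both scales on the left, while on the right Mir143 and Mir214 change sign from 3.24 and 4.27 over all rows to −1.28 and −0.30 over miRNA rows.

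The ratio of the members of a genomic pair within a library needs no scaling between libraries. The ratio of Mir214 to Mir199a-2, taken as log2 with 0.5 added to each count, was 9.79 ± 2.08 (SD, n = 4) in MEF TEsR and 1.17 ± 0.31 (SD, n = 2) in MEF TruSeq. Over summed counts there were 1540 counts of Mir214 for each of Mir199a-2 in MEF TEsR and 2.37 in MEF TruSeq. All 4 MEF TEsR libraries lay above both MEF TruSeq libraries, with an exact permutation p of 0.133, the smallest possible. The highest MEF TEsR value, 12.46 in pmS1, rests on the 0.5 added, since Mir199a-2 had no count there, and the difference of 8.62 was 7.74 without pmS1 and 9.41 without mmS2. The ratio of Mir143 to Mir145a was 2.37 ± 0.37 on the log2 scale (SD, n = 4) in MEF TEsR and 4.35 ± 1.32 (SD, n = 2) in MEF TruSeq, and the summed counts gave 5.28 in MEF TEsR and 15.2 in MEF TruSeq. This difference also stood at the exact permutation p of 0.133, with 2 counts of Mir145a behind the higher of the MEF TruSeq ratios. It was −1.99 on the log2 scale, −1.05 without CGATGT and −2.92 without ATCACG. The ratios were not compared with MES TEsR, where Mir145a and Mir199a-2 had no count and a ratio would rest on the 0.5 added.

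**Figure D5:**
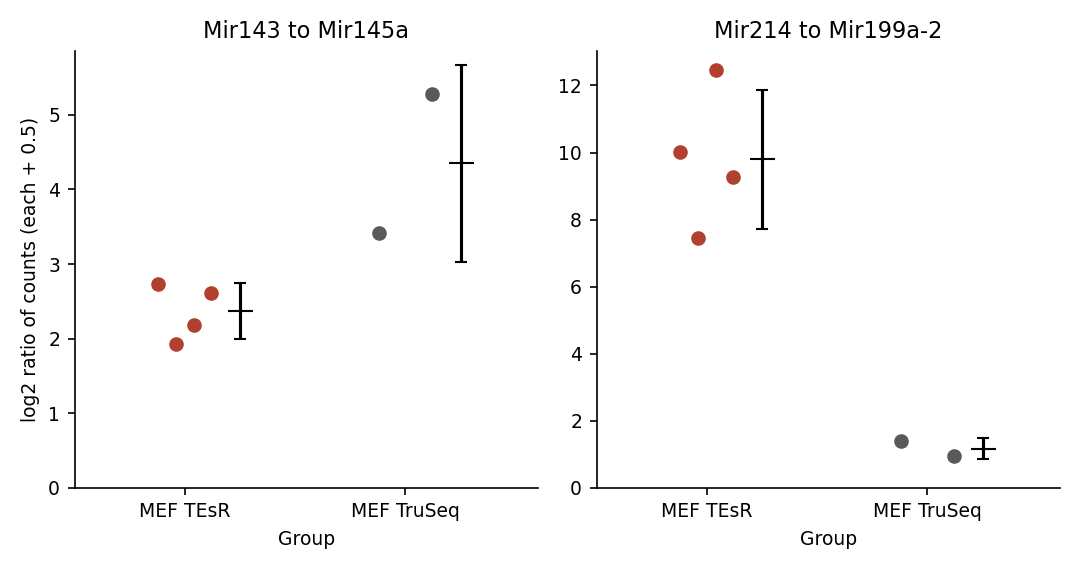
Points are libraries and bars are means ± SD of the log2 ratio of counts (vertical axes, 0.5 added to each count) of Mir143 to Mir145a (left) and Mir214 to Mir199a-2 (right) in MEF TEsR and MEF TruSeq. The Mir214 to Mir199a-2 ratio averages 9.79 in MEF TEsR and 1.17 in MEF TruSeq, and the Mir143 to Mir145a ratio averages 2.37 in MEF TEsR and 4.35 in MEF TruSeq.

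The common sequence of the miR-199 hairpins was set beside that of other rows. Of 55 miRNA rows with at least 20 counts in MEF TruSeq, 4 had no RefSeq mature sequence of their own, since each one listed occurs in another hairpin as well. These were Mir199a-2, Mir199b and 2 let-7 rows, Mirlet7c-2 and Mirlet7a-1. For Mir199b RefSeq lists the 3p arm alone. The 5p stretch of its hairpin, which differs from miR-199a-5p at 1 base, was not taken as a mature sequence here. Each had a mean share of 0% to 0.00206% in MEF TEsR and of 0.248% to 2.59% in MEF TruSeq, from 0 to 17 counts a row over the MEF TEsR libraries and 25 to 228 over the MEF TruSeq libraries. Most of the other rows admitted in this way also had lower shares in MEF TEsR. The share was higher in MEF TEsR for 5 of 36 rows whose mature sequences were all their own. It was higher for 0 of 10 rows with some sequences in other hairpins, and for 1 of 5 rows absent from the RefSeq table. Since the rows were admitted by their MEF TruSeq counts, nothing is read from the direction of these differences. The column names of the TEsR table carry a tag, q10, that those of the TruSeq table lack and that the labels do not explain, so a filter on reads, if it marks one, and the library method cannot be told apart.

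The same mesenchymal list of 39 rows was read between the methods. Of 24 rows tested over all rows, edgeR called 22 higher and 1 lower in MEF TEsR, where 81.6% of miRNA rows were called higher and 7.77% lower. Their median log2 fold change was 6.27, or 5.82 with a row at 0 in MEF TruSeq at its limit, against −2.42 over all rows and 6.28 over miRNA rows. With miRNA rows scaled alone, 29 were tested, and 12 were called higher and 8 lower, where 35.3% of miRNA rows were called higher and 36.1% lower. Here too a row could pass the filter through 1 group alone. Mir29b-1 had 6 and 7 counts in MEF TruSeq and a log2 fold change of 14.60 ± 1.05 (edgeR adjusted p = 1.06e-07), beyond the 11.30 of Mir21a. The 1 row called lower over all rows was Mir140, at −1.54 ± 0.56 (edgeR adjusted p = 0.0197). With miRNA rows scaled alone it was at −6.01 ± 0.52 (edgeR adjusted p = 3.28e-05). Mir140 had 75, 34, 136 and 37 counts in MEF TEsR and 954 and 409 in MEF TruSeq.

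The miRNA rows whose shares ran most like those of the pairs over the 8 libraries were sought among 157 rows with at least 20 counts. For the summed Mir143/Mir145a pair these were Mir30b, Mir345 and Mir542, with Pearson's r of 0.976, 0.963 and 0.936 on log2 of the share with 0.01% added. For the summed Mir199a-2/Mir214 pair they were Mir16-1, Mir16-2 and Mir24-2, with r of 0.925, 0.921 and 0.919. The 8 libraries form 3 groups and shares of a library have a common total, and these rows are thinly counted: Mir542 had 25, 5, 40 and 13 counts in MEF TEsR, 1 and 0 in MES TEsR, and 2 and 1 in MEF TruSeq. These values describe likeness over these libraries only.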

How the data were processed

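The labels' protocols describe a small RNA isolation kit, with ribosomal RNA removed ahead of TEsR capture. The authors deposited raw whole-number counts of reads for each annotated small RNA, without normalization, in 2 tables with the same rows. The submitters' processing notes list mm10 and the tools bedtools 2.25.0, SAMtools 1.2.1, BWA 0.7.12 and cutadapt; the sources used here do not give their roles, settings or use of strand. Columns were assigned to groups by name.

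Row types and hosts came from GENCODE vM21. Shares used miRNA rows clear of snoRNA and ribosomal RNA rows, with identical overlapping rows counted once and AC161199.1, which shares counts with a snoRNA, left out. Rows were tested with edgeR 4.0.16 in R 4.3.3 (quasi-likelihood, trimmed mean of M-values, filterByExpr with a minimum count of 10, Benjamini-Hochberg threshold 0.05), with SE computed as the log2 fold change over the square root of F, after a test on simulated data. Fold limits put a count of 0 at 3 counts per library. Alternatives were DESeq2 1.42.0, library size only, no filter, miRNA rows only, duplicates once, all groups in 1 fit, a replicate block and each library left out. Within a group, each pair of libraries differed by more than counting noise (chi-square over degrees of freedom of 21.9 to 794).

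All 8 members were described. From the mesenchymal list, up to 4 called rows with the largest change and at least 10 CPM in the higher group were eligible to be named; Mirlet7c-2, Mirlet7a-1, Mir132, Mir24-2 and the rows that missed the threshold were named after their values were seen. The members and lists were chosen with earlier results of these data known.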

Additional observations from a re-analysis of the deposited data

Results flagged for a closer look

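Mir199a-1 in pmS1, at 0.000765% of miRNA counts, stood apart from the other 3 MEF TEsR libraries, which had none. The value rests on 2 counts, under the limit of 3 that a count of 0 allows. Dixon's test was applied to 10 sets of 4 values and marked this 1. With the other 3 values all at 0 its ratio is 1 whatever the fourth value, so the mark follows from sparse counts. The chance rate of about 1 in 20 holds for continuous values and does not apply here.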

How the results depend on the processing

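The calls of MEF TEsR over MES TEsR for Mir21a, Mir214, Mir143, Mir22 and Mir145a held under each alternative that tested them, and those for Mir21a, Mir22 and Mir199a-2 over MEF TruSeq likewise. With miRNA rows only, 32 rows were higher and 37 lower against MES TEsR, and 47 higher and 48 lower against MEF TruSeq. Also without the 3 leading rows, a setting chosen after seeing the data, 34 were higher and 35 lower against MES TEsR, and 48 higher and 42 lower against MEF TruSeq. Against MEF TruSeq, Mir143 was then at −1.28 and −0.45 and Mir214 at −0.30 and 0.61, with the sign change following from the scaling set. Over all counts of a library, the summed share of the 8 miRNAs differed by 1.35 points from MES TEsR and 1.36 from MEF TruSeq. Over all rows typed as miRNA it differed by 27.5 points from MEF TruSeq. Scaling by library size alone moved the median of all rows to 0.38 (MES TEsR) and −3.02 (MEF TruSeq). Each library left out gave 59 to 97 rows higher and 103 to 121 lower against MES TEsR, and 96 to 116 higher and 187 to 202 lower against MEF TruSeq, where a lone library was assumed to vary like the other group.

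With the replicate block, 77 rows were higher and 117 lower against MES TEsR and the same 5 of 8 miRNAs were called. Deviations of same-numbered libraries from their group means correlated at −0.0490 to 0.0187. Whether the numbers pair the libraries cannot be told from this, since the deviations of the MES TEsR libraries mirror each other. No block was possible for MEF TruSeq, whose columns carry no number. Ratios to Mir145a and Mir199a-2 were not compared with MES TEsR, where neither had a count. Depth limits the MES TEsR and MEF TruSeq values, at 3366 to 6730 miRNA counts per library.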
